A study of Mus musculus with 9 samples.

Results

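Transcripts of 10 genes of the cGAS-STING relay and of inherited nucleic-acid autoimmunity were followed in the kidneys of wild-type and Trex1-/- mice. They were chosen by name, and all 10 were found among the 54532 genes counted and passed the filter on low counts with 16646 genes in all. The 5 relay genes are Cgas, Tmem173 (the gene of STING, also named Sting1), Tbk1, Ikbke and Irf3. The 5 autoimmunity genes are Samhd1, Adar, Rnaseh2a, Rnaseh2b and Rnaseh2c. In Trex1-/- kidneys given PBS, Samhd1 was 1.86-fold and Adar 2.11-fold higher than in the wild type, and these were the members called changed. No relay gene and no RNase H2 gene was called in any comparison by edgeR's quasi-likelihood test.

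The protein cGAS binds double-stranded DNA in the cytosol and makes the cyclic dinucleotide cGAMP, which binds STING at the endoplasmic reticulum. STING then recruits the kinase TBK1, with the related kinase IKK-epsilon encoded by Ikbke, and the kinases phosphorylate the transcription factor IRF3, so the relay runs mainly through protein modification and movement. TREX1, the enzyme missing in the knockout, is a DNA exonuclease that clears DNA from the cytosol. Mutations in the human genes of TREX1, SAMHD1, ADAR and the RNase H2 subunits cause Aicardi-Goutières syndrome, an inherited disease marked by type I interferon. SAMHD1 hydrolyses deoxynucleoside triphosphates, ADAR edits adenosine to inosine in double-stranded RNA, and RNase H2 removes ribonucleotides from DNA and cuts RNA paired with DNA.

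PolyA+ RNA was sequenced from 9 kidneys of mice on a C57BL/6J background, in 3 groups of 3. Wild-type (WT) mice, with no treatment named in the labels, formed the first group. Trex1-/- mice formed the other two, of which one received PBS and one the STING antagonist SN-011. The Trex1-/- mice came from heterozygous matings, were about a month old at the start and were injected daily for 2 weeks, with the vehicle being PBS with Tween 80 by the study's methods. The WT mice were purchased, and the sources do not call them littermates of the Trex1-/- mice. Trex1 was listed at 0 counts in all 9 libraries, and all 1147 of its exonic bases are shared with Atrip in the annotation, so its count could not check the genotype labels. Whether the 3 kidneys of a group came from separate animals is not stated for each library, and p-values measure the spread between these libraries.

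The libraries held 16118813 to 21928965 counts over 23180 to 24657 genes with reads. Transcripts of Y-linked genes were present in all 3 Trex1-/- PBS libraries, in WT replicate 3 and in SN-011 replicate 2, and were at or near 0 in the other 4, while the labels give no sex. SN-011 replicate 2 also stood furthest from its own group over all genes. Markers of proximal tubule (6478 to 8024 CPM in sum), distal nephron (9024 to 11905 CPM) and podocytes (333 to 455 CPM) were high in every library, as the kidney label says. CPM are counts relative to the library size, after TMM scaling (trimmed mean of M-values). A change was called at a Benjamini-Hochberg adjusted p under 0.05 over the 16646 genes, and fold changes are edgeR estimates with their standard error (SE).

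Per transcript length, the relay and autoimmunity genes spanned a wide range of levels, with Irf3 at the top and Cgas at the bottom. In TPM, a level per transcript length computed from the counts and the annotated exonic length, Irf3 averaged 53.8 and Rnaseh2c 53.5 over the 9 libraries. Irf3 was the higher of the pair in 4 of 9 libraries, so their order was not resolved. Both stood near percentile 83.9 of the genes tested. Tbk1 followed at 30.2 TPM, above Samhd1 in all 9 libraries although their ranges touched. Samhd1 at 18.7 TPM and Adar at 17.2 TPM came next, and their ranges over the libraries overlapped. Rnaseh2a at 12.4 TPM, Rnaseh2b at 8.28 TPM and Tmem173 at 6.32 TPM also overlapped with their neighbours in the order. Below them Ikbke at 2.37 TPM and Cgas at 0.790 TPM did not overlap with each other or with Tmem173. The transcript of the sensor was thus the lowest of the 10, at percentile 7.16 of the genes tested. These levels depend on the annotated length, which for each of the 10 genes adds up all annotated isoforms, to 9018 bases for Ikbke and 9150 bases for Samhd1.

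**Figure D1:**
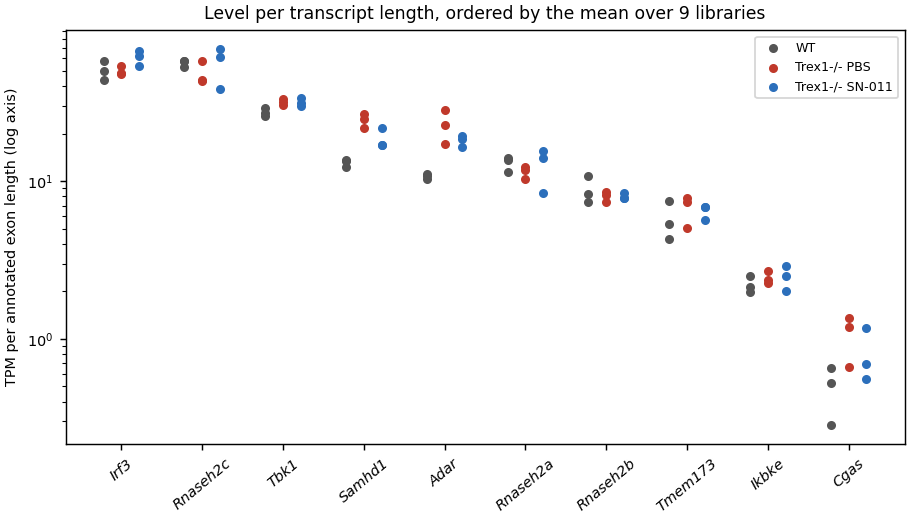
TPM per annotated exon length (log axis) of the 10 genes, ordered by their mean over 9 libraries, with 1 point per library and colours for WT, Trex1-/- PBS and Trex1-/- SN-011. The genes run from Irf3 and Rnaseh2c at 53.8 and 53.5 TPM to Cgas at 0.790 TPM, and the groups separate for few of them.

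Cgas (GRCm38 chr9:78430526-78443237, minus strand) encodes the DNA sensor. Its level was 0.424, 0.948 and 0.810 CPM in WT, 1.77, 1.99 and 1.06 CPM in Trex1-/- PBS, and 1.59, 1.16 and 0.772 CPM in Trex1-/- SN-011. All 3 Trex1-/- PBS libraries were above all 3 WT libraries, and the SN-011 libraries overlapped with both groups. The values rest on 9 to 34 counts per library. The log2 fold change of Trex1-/- PBS against WT was 1.14 (SE 0.40, edgeR adjusted p = 0.214), with a 95% interval of the fold from 1.18 to 4.09. This was the largest fitted change of the 10 genes and the least precise. SN-011 against PBS gave -0.45 (adjusted p = 0.701) and SN-011 against WT 0.69 (adjusted p = 0.417). Single libraries moved both values. The first was -0.22 without SN-011 replicate 3, -0.26 without PBS replicate 2 and -0.73 without SN-011 replicate 1, and the other was 0.41 without WT replicate 1 and 0.41 without SN-011 replicate 1.

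Tmem173 (chr18:35733679-35740554, minus strand) encodes STING, the target of SN-011. It was at 5.33, 4.15 and 7.69 CPM in WT, 7.67, 7.12 and 5.35 CPM in Trex1-/- PBS and 6.18, 6.32 and 6.35 CPM in Trex1-/- SN-011. The groups overlapped throughout, and the highest library of all was WT replicate 3. That WT library is the one with Y-linked transcripts, against a mean of 4.74 CPM in the other WT libraries. In the SN-011 group the library with them was at 6.32 CPM and the others at a mean of 6.26 CPM, and no PBS library lacked them. With a term for Y-linked transcripts the change in Trex1-/- PBS against WT was 0.02 (edgeR adjusted p = 0.991). Log2 fold changes were 0.24 in Trex1-/- PBS against WT (interval -0.27 to 0.75), -0.10 in SN-011 against PBS (interval -0.61 to 0.41) and 0.14 in SN-011 against WT (interval -0.37 to 0.65), with edgeR adjusted p of 0.676, 0.906 and 0.795. The first value was 0.50 without WT replicate 3, 0.37 without PBS replicate 3, 0.12 without PBS replicate 1 and 0.05 without WT replicate 2. The intervals leave room for changes of the STING transcript up to 1.68-fold in the first comparison.

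Tbk1 (chr10:121546455-121586787, minus strand) encodes the kinase that STING recruits. It measured 41.0, 37.0 and 37.7 CPM in WT, 42.8, 46.0 and 47.5 CPM in Trex1-/- PBS, and 43.2, 49.4 and 39.4 CPM in Trex1-/- SN-011. Trex1-/- PBS lay above WT without overlap, by a narrow margin. The log2 fold change was 0.24 (SE 0.10, edgeR adjusted p = 0.294), which bounds the fold between 1.01 and 1.37. SN-011 against PBS was -0.05 (adjusted p = 0.890) and SN-011 against WT 0.19 (adjusted p = 0.347). Without SN-011 replicate 2 these were -0.14 and 0.093, and the former was 0.033 without SN-011 replicate 3.

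Ikbke (chr1:131254343-131279606, minus strand), the gene of the related kinase IKK-epsilon, was at 6.46, 6.77 and 8.45 CPM in WT. It was at 7.31, 8.52 and 8.20 CPM in Trex1-/- PBS and at 7.42, 7.36 and 8.84 CPM in Trex1-/- SN-011. The 3 groups overlapped. The log2 fold changes of 0.15, -0.03 and 0.13 in the same order of comparisons had edgeR adjusted p of 0.696, 0.969 and 0.725. Single libraries moved each of them, the first to 0.072 without WT replicate 1, 0.098 without PBS replicate 2 and 0.27 without WT replicate 3, and the last to 0.053 and 0.080 without WT replicates 1 and 2, 0.24 without WT replicate 3 and 0.036 without SN-011 replicate 3.

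Irf3 (chr7:44997648-45002848, plus strand), is the transcription factor at the end of the relay. It was at 61.9, 69.8 and 56.5 CPM in WT, 60.1, 65.3 and 63.7 CPM in Trex1-/- PBS, and 76.2, 74.8 and 71.6 CPM in Trex1-/- SN-011. In CPM the SN-011 libraries lay above all the others, while WT and PBS overlapped. In TPM, SN-011 replicate 2 (53.70) lay below WT replicate 2 (57.53) and PBS replicate 2 (53.78). The log2 fold change was 0.01 in Trex1-/- PBS against WT (interval -0.19 to 0.20), so the fold lay between 0.876 and 1.15. Its sign turned to negative with DESeq2 size factors or upper-quartile scaling. It was 0.24 in SN-011 against PBS (SE 0.09, edgeR adjusted p = 0.367) and 0.24 in SN-011 against WT (SE 0.09, adjusted p = 0.194), neither of which passed the threshold.

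**Figure D2:**
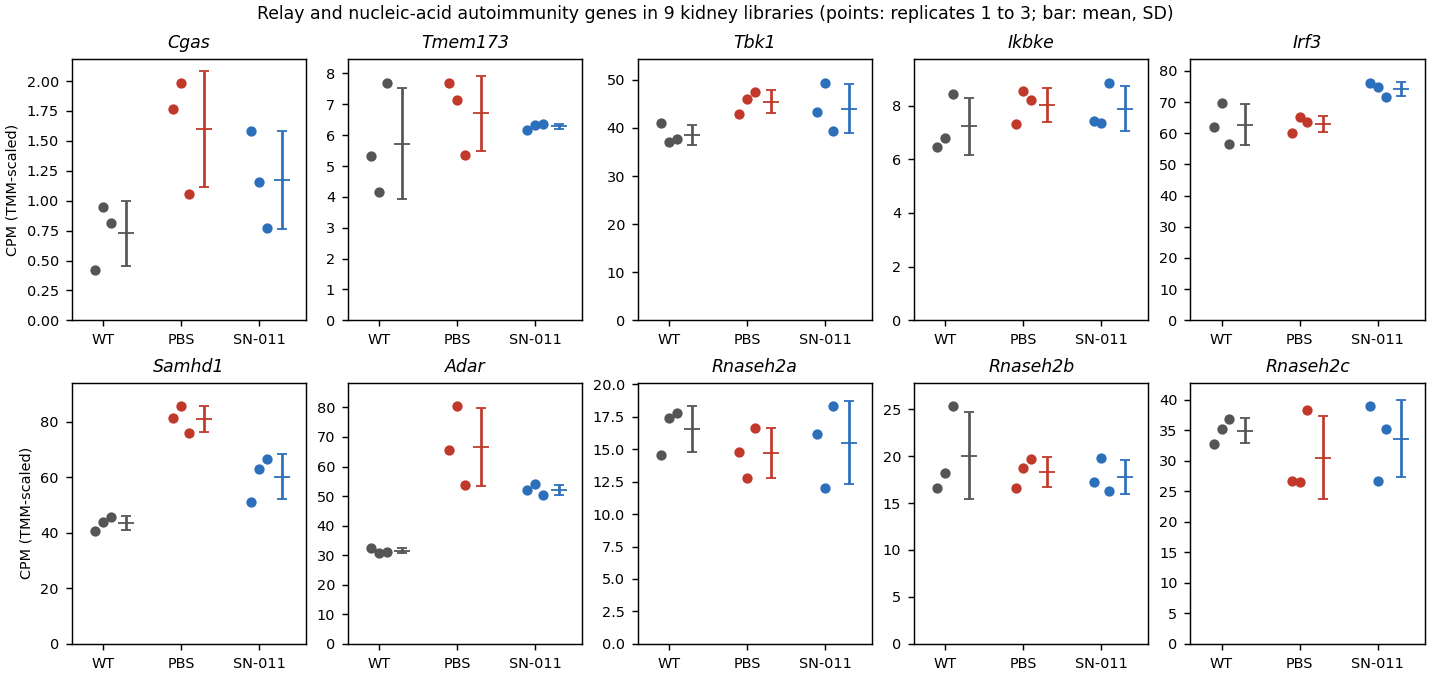
CPM of the 10 genes in each library (y axis from 0, 1 panel per gene), with points for replicates 1 to 3 of WT, Trex1-/- PBS and Trex1-/- SN-011 and a bar for the mean and SD of each group. Samhd1 and Adar separate WT from both Trex1-/- groups, with Adar at 30.8 to 32.4 CPM in WT and 50.5 CPM or more elsewhere, while the RNase H2 genes overlap across groups.

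Samhd1 (chr2:157097533-157135265, minus strand) rose in Trex1-/- kidneys. It was at 40.8, 44.1 and 45.7 CPM in WT, at 81.5, 85.6 and 76.1 CPM in Trex1-/- PBS, and at 51.0, 63.2 and 66.7 CPM in Trex1-/- SN-011. In CPM the 3 groups did not overlap, with SN-011 between the others. In TPM, SN-011 replicate 3 (21.65) lay just above PBS replicate 3 (21.63). The log2 fold change of Trex1-/- PBS against WT was 0.90 (SE 0.11, edgeR adjusted p = 0.00153), a 1.86-fold rise with an interval from 1.58 to 2.19. SN-011 against PBS gave -0.43 (SE 0.11, adjusted p = 0.241), an interval of the fold from 0.632 to 0.876, which did not pass the threshold. SN-011 against WT gave 0.47 (SE 0.11, adjusted p = 0.0675). That last value passed the threshold with edgeR's exact test (0.0232) and the DESeq2 Wald test (0.00951), without a filter on low counts (0.0401), with a term for Y-linked transcripts (0.0355), and without SN-011 replicate 1 (0.0200), the lowest library of its group.

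Adar (chr3:89715022-89753446, plus strand) also rose. It was at 32.4, 30.8 and 31.2 CPM in WT, at 65.6, 80.3 and 53.9 CPM in Trex1-/- PBS, and at 52.0, 54.0 and 50.5 CPM in Trex1-/- SN-011. WT was the tightest of the groups and lay below every Trex1-/- library, while PBS replicate 3 lay just under SN-011 replicate 2. Trex1-/- PBS against WT gave a log2 fold change of 1.08 (SE 0.13, edgeR adjusted p = 0.00141), a 2.11-fold rise with an interval from 1.74 to 2.57. SN-011 against WT gave 0.73 (SE 0.13, adjusted p = 0.0268), a 1.65-fold rise. SN-011 against PBS gave -0.35 (SE 0.13, adjusted p = 0.329), not past the threshold, and -0.19 without PBS replicate 2. The call against WT in the SN-011 group was lost without WT replicate 1 (adjusted p = 0.101), WT replicate 2 (0.117), WT replicate 3 (0.0569), PBS replicate 1 (0.0572) or SN-011 replicate 1 (0.0514), with log2 fold changes of 0.71 to 0.75. In Adar, 16.8% of the exonic bases lie opposite exons of Chrnb2, and since the strand setting of the counting is not given, reads of that stretch are uncertain.

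Set on the scale of fold over WT, the SN-011 group kept 44.6% of the rise of Samhd1 and 58.7% of that of Adar. Leaving out 1 library at a time gave 36.1% to 57.0% for Samhd1 and 49.7% to 73.0% for Adar. These shares describe group estimates, because the difference between SN-011 and PBS was not called for either gene.

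The rises of Samhd1 and Adar came with higher leukocyte markers. Over all genes tested, 1.44% were called higher in Trex1-/- PBS than in WT and 15.2% had an unadjusted p under 0.05. The sum of 5 pan-leukocyte markers (Ptprc, Cd52, Cd53, Coro1a and Laptm5) was 49.8 to 65.8 CPM in WT, 94.9 to 112 CPM in Trex1-/- PBS and 55.6 to 87.5 CPM in Trex1-/- SN-011, and Cd52 and Coro1a of the 5 were called higher in Trex1-/- PBS than in WT. The 6 macrophage and dendritic cell markers summed to 84.7 to 98.2, 109 to 128 and 71.7 to 103 CPM in the same groups, with 0 of 6 called by edgeR and 4 of 6 at an unadjusted p under 0.05. The 6 T and NK cell markers summed to 6.32 to 10.2, 16.5 to 27.2 and 9.01 to 19.2 CPM, with 2 of 6 called higher. The 4 B and plasma cell markers summed to 4.65 to 7.12, 17.1 to 19.9 and 11.6 to 31.6 CPM, most of it from Jchain, the joining chain of secreted antibodies, and Jchain was the 1 called higher of 2 tested. The 5 endothelial markers summed to 400 to 454, 413 to 439 and 344 to 462 CPM and overlapped, and adipocyte markers at 9.22 to 80.4 CPM varied within each group. No marker of these lists was at 0 in all libraries. Distal nephron markers (Umod, Slc12a1, Slc12a3 and Aqp2) summed to 10273 to 11905 CPM in WT and 9024 to 9510 CPM in Trex1-/- PBS, without overlap, with a median log2 fold change of -0.29, 0 of 4 called by edgeR's quasi-likelihood test and 1 of 4 at an unadjusted p under 0.05. The proximal tubule sum overlapped between those groups, but most of it was Slc34a1 (log2 fold change 0.04), and the other 3 markers, Lrp2 (-0.41), Cubn (-0.26) and Slc5a12 (-0.48), had an unadjusted p under 0.05 with 0 of 4 called and a list median of -0.34. In bulk kidney, more cells of a type and more RNA per cell cannot be told apart, and the part of leukocytes in the result was not tested.

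**Figure D3:**
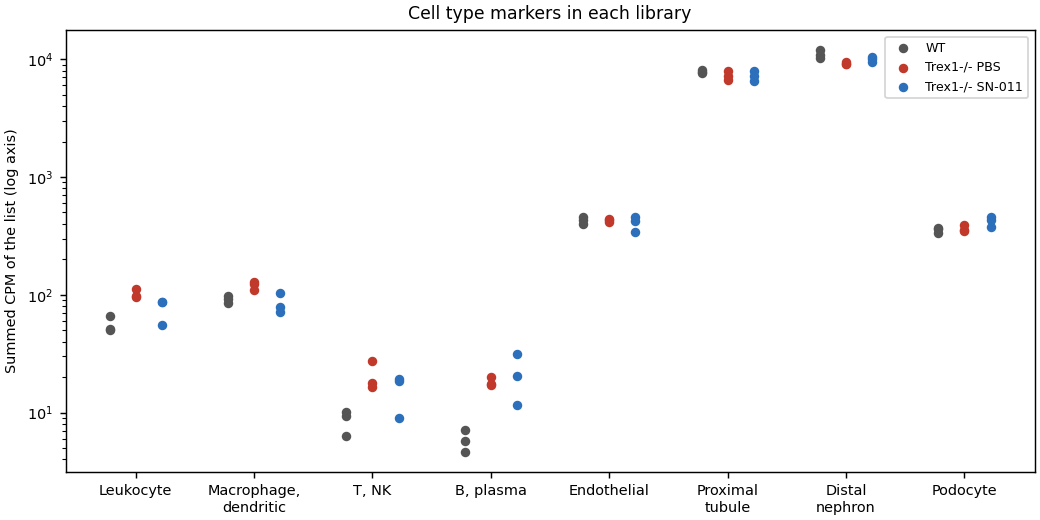
Summed CPM (log axis) of the markers of 8 cell types in each of the 9 libraries, coloured by group. The leukocyte sum lies at 94.9 to 112 CPM in Trex1-/- PBS against 49.8 to 65.8 CPM in WT, and the endothelial sums of those groups overlap.

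The distribution of Y-linked transcripts was uneven over the groups, and it was set beside Samhd1 and Adar. In WT, Samhd1 was at 45.7 CPM in the library with Y-linked transcripts and at a mean of 42.5 CPM in the other 2, against a mean of 81.1 CPM in the 3 Trex1-/- PBS libraries, all of which had them. Adar was at 31.2 CPM in that WT library and at a mean of 31.6 CPM in the other 2. With a term for Y-linked transcripts in the fit, Trex1-/- PBS against WT gave 0.83 for Samhd1 (edgeR adjusted p = 0.0108) and 1.06 for Adar (adjusted p = 0.00881), so both calls were kept. That term moved several uncalled members by over 1.5 times. In Trex1-/- PBS against WT it gave 0.082 for Ikbke, 0.075 for Irf3, -0.064 for Rnaseh2a and -0.087 for Rnaseh2c, and in SN-011 against PBS 0.019 for Rnaseh2c.

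Because Samhd1 and Adar moved, the sequences before their starts are shown. RefSeq promoters of GRCm38.p6, each 250 bases before to 50 after a start, were searched for 8 of the 10 genes (10 windows in all). Rnaseh2b had no promoter in the set used, and Tmem173 was left out of the search. Both strands were searched for the interferon-stimulated response element (ISRE) core, which is GAAA, any 2 bases and GAAA. They were also searched for a shortened form GAAANNGAA taken up after seeing the sequences, which every full core contains, for the gamma-activated site TTCNNNGAA and for the kB core, which is GGG, any 5 bases and CC. The Samhd1 window is chr2:157135047-157135346 on the minus strand. The Adar window is chr3:89730468-89730767 on the plus strand, inside the first intron of the long annotated transcript, at an internal start. Capitals mark gamma-activated sites and, in Adar, also the shortened ISRE.
Samhd1: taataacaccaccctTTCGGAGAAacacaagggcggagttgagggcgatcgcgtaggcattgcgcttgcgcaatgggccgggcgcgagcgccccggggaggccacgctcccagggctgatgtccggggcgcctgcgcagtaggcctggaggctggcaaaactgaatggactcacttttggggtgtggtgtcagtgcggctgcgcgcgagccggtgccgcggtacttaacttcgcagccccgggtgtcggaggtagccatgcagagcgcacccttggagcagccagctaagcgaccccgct
Adar: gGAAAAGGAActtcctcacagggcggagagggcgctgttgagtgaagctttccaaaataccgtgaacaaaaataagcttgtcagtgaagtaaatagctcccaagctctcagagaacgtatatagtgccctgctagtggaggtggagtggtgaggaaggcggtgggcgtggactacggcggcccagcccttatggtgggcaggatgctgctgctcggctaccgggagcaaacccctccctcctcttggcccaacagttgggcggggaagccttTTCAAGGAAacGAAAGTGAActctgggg

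The full ISRE core was in 0 of the 10 windows, against 3.44% of the 32851 mouse promoters of that length. The shortened core was in the Adar window alone, where its 2 matches began at positions -249 and 33 counted from the start, against 8.56% of all promoters. The gamma-activated site was in 3 windows, beginning at position -235 in Samhd1, 22 in Adar and 16 in Rnaseh2a, against 8.3% of all promoters. The kB core was in 6 windows of 5 genes (Adar, Cgas, Irf3, Rnaseh2a and Tbk1), against 50.8% of all promoters. A match of letters is a description of the window and not a binding site, and Rnaseh2a held a gamma-activated match although it was not called. Adar has further windows at its upstream start, where neither the ISRE forms nor the gamma-activated site were found. The deposited count adds up both starts of Adar. The longer protein, p150, is known to be made from an interferon-inducible start, and these counts cannot tell the isoforms apart.

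The 3 subunits of RNase H2 gave no call in any comparison. Rnaseh2a (chr8:84956610-84969767, minus strand), the catalytic subunit, was at 14.5, 17.4 and 17.8 CPM in WT, 14.7, 12.8 and 16.6 CPM in Trex1-/- PBS, and 16.1, 12.0 and 18.3 CPM in Trex1-/- SN-011. Its groups overlapped, and 14.7% of its exonic bases are shared with other genes, Gm49661 on the same strand among them. Log2 fold changes were -0.17, 0.07 and -0.10 for Trex1-/- PBS against WT, SN-011 against PBS and SN-011 against WT, with edgeR adjusted p of 0.677, 0.900 and 0.804. The first of these bounds the fold between 0.688 and 1.15, and it was -0.26 without WT replicate 1, -0.086 without PBS replicate 2 and -0.27 without PBS replicate 3.

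Rnaseh2b (chr14:62292589-62372992, plus strand) and Rnaseh2c (chr19:5601873-5607019, plus strand) are the accessory subunits. Rnaseh2b was at 16.6, 18.2 and 25.3 CPM in WT, 16.6, 18.7 and 19.6 CPM in Trex1-/- PBS, and 17.2, 19.8 and 16.3 CPM in Trex1-/- SN-011. WT replicate 3, the WT library with Y-linked transcripts, was the highest of the 9. Its log2 fold changes were -0.13 (interval -0.48 to 0.23), -0.04 and -0.17, with edgeR adjusted p of 0.757, 0.941 and 0.635. The sign of the first depended on that library, since it was 0.07 without it (-0.25 and -0.19 without WT replicates 1 and 2 and -0.064 without PBS replicate 1), and it was -0.37 with a term for Y-linked transcripts (adjusted p = 0.309).

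Rnaseh2c was at 32.8, 35.2 and 36.8 CPM in WT, 26.6, 26.4 and 38.3 CPM in Trex1-/- PBS, and 38.9, 26.6 and 35.3 CPM in Trex1-/- SN-011. The low libraries were PBS replicates 1 and 2 and SN-011 replicate 2, so the spread within both Trex1-/- groups was wider than any shift between groups. Its log2 fold changes were -0.20 (interval -0.57 to 0.18), 0.14 and -0.06, with edgeR adjusted p of 0.632, 0.790 and 0.899. The first of these was -0.40 without PBS replicate 3 and -0.11 without either of the other PBS libraries. In SN-011 against PBS it was 0.35 without PBS replicate 3, 0.059 and 0.056 without PBS replicates 1 and 2, 0.021 without SN-011 replicate 1 and 0.28 without SN-011 replicate 2. In Rnaseh2c, 24.8% of the exonic bases lie opposite Kat5.

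**Figure D4:**
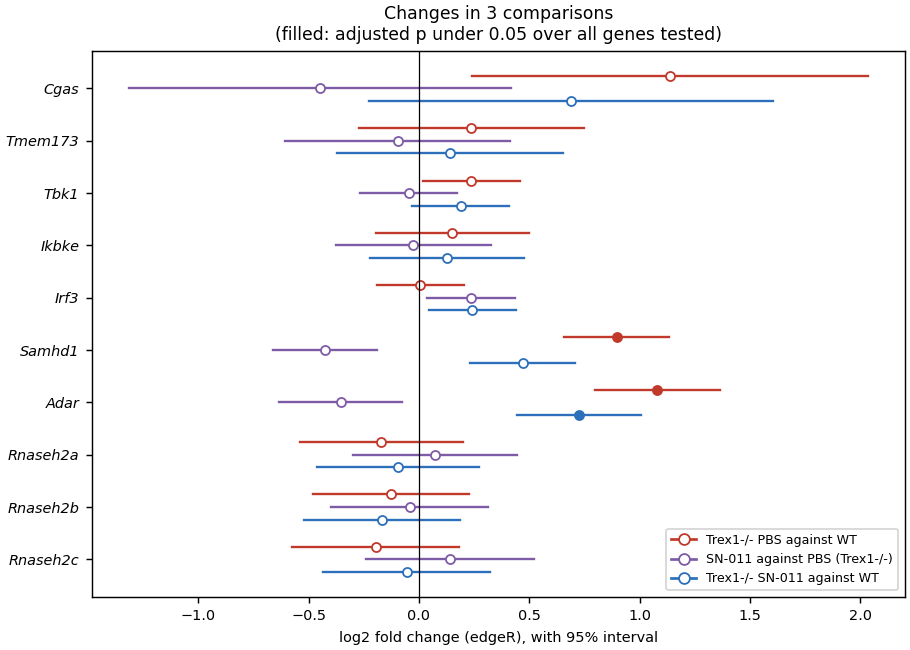
Log2 fold change with its 95% interval (edgeR, x axis) of the 10 genes in 3 comparisons, with filled points for an adjusted p under 0.05 over 16646 genes. The filled points are Samhd1 at 0.90 and Adar at 1.08 in Trex1-/- PBS against WT, and Adar at 0.73 in SN-011 against WT.

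Counted over the 10 genes, 2 were called higher and 0 lower in Trex1-/- PBS against WT, where 1.88% of all genes tested were called (1.44% higher and 0.439% lower). In that comparison, 4 members (Cgas, Tbk1, Samhd1 and Adar) had an unadjusted p under 0.05 against 15.2% of all genes, and the same 4 had groups that did not overlap against 25.4% of all genes. The median log2 fold change of the 10 was 0.19, beside 0.00 over all genes. In SN-011 against PBS, edgeR called 0 of the 10 and 0% of all genes, with 3 members (Irf3, Samhd1 and Adar) at an unadjusted p under 0.05 against 11.4% of all genes. The exact test of edgeR called 0 of the 10 there against 0.763% of all genes, limma-voom 0 of the 10 against 0%, and the Wald test of DESeq2 0 of the 9 to which it gave an adjusted p (all but Cgas) against 1.1%. Irf3 and Samhd1 did not overlap in CPM between these groups, against 16.1% of all genes, and the median was -0.04. In SN-011 against WT, 1 was called, Adar, against 1.28% of all genes (0.823% higher and 0.457% lower). There 3 (Irf3, Samhd1 and Adar) had an unadjusted p under 0.05 against 18% and no overlap in CPM against 21.7%, and the median was 0.16. The comparisons share libraries and are not independent of each other.

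The readouts downstream of the relay had larger fitted changes than most of its members. Of 9 genes induced by IRF3 and interferon, 8 were tested and 7 were called higher in Trex1-/- PBS than in WT, with a list median of 2.74 on the log2 scale. Of all genes tested, 1.44% were called higher there and 15.2% had an unadjusted p under 0.05. This list and those below were chosen with earlier results of these data known. Cxcl10, a chemokine that draws T cells, was at 3.82 to 4.20 CPM in WT, 40.4 to 62.4 CPM in Trex1-/- PBS and 14.5 to 28.8 CPM in Trex1-/- SN-011. Its log2 fold change of PBS against WT was 3.61 (SE 0.26, edgeR adjusted p = 1.27e-04). The other called readouts were Oasl1 (3.58), Isg15 (3.24), Ifit1 (3.13), Ifit3 (2.36), Ifit2 (1.90) and Rsad2 (1.18), while the chemokine gene Ccl5 at 1.66 had an adjusted p of 0.0738. Ifnb1, which encodes interferon beta, was listed at 0 counts in all 9 libraries. In SN-011 against PBS all 8 had values below 0, from -1.27 to -0.66. By edgeR's quasi-likelihood test 0 were called, and all 8 had an unadjusted p under 0.05, against 11.4% of all genes. The DESeq2 Wald test called 7 of the 8 lower there, all but Ccl5, and edgeR's exact test called Cxcl10, Ifit1, Ifit2, Ifit3 and Isg15. Those tests called 1.1% and 0.763% of all genes there. Against WT, 6 of them were called in the SN-011 group, all but Ccl5 and Rsad2, where 0.823% of all genes were called higher. Of these 6, Isg15 and Ifit2 lost the call without WT replicate 1 and without WT replicate 2, and Ifit2 also with only the 6 libraries compared.

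Few genes around the relay itself were called. In Trex1-/- PBS against WT, 1.44% of all genes were called higher and 15.2% had an unadjusted p under 0.05. Counts of a list at that unadjusted threshold stand beside this share and are not read as a result about the list. Of 9 adaptors and partners of TBK1, the one called in Trex1-/- PBS against WT was Irf7, an interferon-induced transcription factor, at 20.8 to 37.4 CPM in WT, 202 to 272 CPM in PBS and 66.9 to 118 CPM in SN-011. Its log2 fold change was 3.08 (SE 0.27, edgeR adjusted p = 2.37e-04), and 1.84 in SN-011 against WT (adjusted p = 0.0103), a call lost without WT replicate 1, without WT replicate 2 and with only the 6 libraries compared. The median of that list was 0.07, and 2 of 9 had an unadjusted p under 0.05 in PBS against WT. Of 17 genes of STING traffic and turnover, the one called was Usp18, an ISG15 protease, at 2.78 (SE 0.18, adjusted p = 7.59e-05) and at 1.95 in SN-011 against WT (adjusted p = 0.00206), with a list median of 0.04 and 3 of 17 at an unadjusted p under 0.05 in PBS against WT. The other 2 of these, named after their values were seen, were Trim56 at 0.48 (adjusted p = 0.0726) and Insig1 at -0.76 (adjusted p = 0.0989), the latter at -0.92 in SN-011 against WT (adjusted p = 0.0604). Insig1 was called lower in SN-011 against WT by limma-voom, by the exact test and by the Wald test, with the Y-linked term, without a filter on low counts and without SN-011 replicate 1. Of 6 cofactors of cGAS none was called by edgeR's quasi-likelihood test in any comparison, with 1 at an unadjusted p under 0.05 in Trex1-/- PBS against WT, Trim14 at 1.11 (adjusted p = 0.0757). Of 8 genes that handle cGAMP, 7 were tested and 0 called, with 2 at an unadjusted p under 0.05, and the one with the smallest p was Enpp1, which hydrolyses cGAMP. Enpp1 was at 50.7 to 59.4 CPM in WT, 43.7 to 48.6 CPM in PBS and 53.3 to 65.5 CPM in SN-011, a log2 fold change of -0.30 in PBS against WT (adjusted p = 0.203) and 0.41 in SN-011 against PBS (adjusted p = 0.241).

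Among other sensors of nucleic acid, 4 RNA sensors were called in the same comparisons as Adar. Of 6 genes of double-stranded RNA sensing and editing, 5 were tested. In Trex1-/- PBS against WT 4 of these genes were called higher, against 1.44% of all genes. They were Dhx58 at 2.41, Ifih1 at 1.63, Ddx58 (RIG-I) at 1.24 and Eif2ak2 (the kinase PKR) at 1.23, with edgeR adjusted p of 8.71e-04, 3.34e-04, 3.34e-04 and 0.00102. All 4 were also called in SN-011 against WT, at 1.28, 0.999, 0.81 and 0.69, where 0.823% of all genes were called higher. All 4 of those calls were lost without WT replicate 1 and without WT replicate 2, and those of Dhx58 and Eif2ak2 also with limma-voom and without WT replicate 3, PBS replicate 1 or SN-011 replicate 3. Dhx58 further lost its call with the replicate block, upper-quartile scaling, only the 6 libraries compared and without PBS replicate 2 or 3, and Eif2ak2 without SN-011 replicate 1 or 2. Adarb1, the gene of another RNA editing enzyme, was at a mean of 13.3 CPM in WT and 12.2 CPM in PBS, with a log2 fold change of -0.13 (adjusted p = 0.751). Of 13 other DNA sensors and DNA-binding proteins, Zbp1 at 2.71 (adjusted p = 0.00130) and Ifi204 at 1.87 (adjusted p = 0.00270) were called, as they were in SN-011 against WT (1.72 and 1.32), and the list median was 0.00. In SN-011 against WT both calls were lost with limma-voom, with only the 6 libraries compared and without any 1 of WT replicates 1 and 2, PBS replicates 1 and 3 and SN-011 replicate 3, and that of Ifi204 also with the replicate block and without PBS replicate 2.

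Other enzymes that clear nucleic acid and those of nucleotide supply gave no call in edgeR's quasi-likelihood test on the 9 libraries. Of 13 nucleases and related genes 11 were tested and 0 called by that test in any comparison. In Trex1-/- PBS against WT 3 of them had an unadjusted p under 0.05, beside 15.2% of all genes. The smallest p was that of Dnase1l3, a secreted DNase, at 1.27 (adjusted p = 0.129) and a level of 0.849 to 1.63 CPM in WT and 2.50 to 3.09 CPM in PBS. Of 10 genes of deoxynucleotide metabolism, the pathway opposed by SAMHD1, 0 were called and 2 had an unadjusted p under 0.05, beside the same 15.2%. The smallest p was that of the deoxycytidine kinase gene Dck, at 0.88 (adjusted p = 0.135). Over all 9 lists edgeR's quasi-likelihood test on the 9 libraries called no gene lower in any comparison and none in SN-011 against PBS. Other settings did call list genes lower in SN-011 against PBS, with 11 by the DESeq2 Wald test, 9 by edgeR's exact test, 12 without a filter on low counts and 8 without SN-011 replicate 2, among them Cxcl10, Ifit1, Isg15, Irf7, Ifih1 and Usp18 in each of these. Without SN-011 replicate 2, Enpp1 was also called higher. In Trex1-/- PBS against WT, the Wald test and the exact test each called 20 list genes higher and 1 lower where the quasi-likelihood test called 15 and 0, the added genes being Ccl5, Dck, Dnase1l3, Trim14 and Trim56 and, lower, Insig1. In SN-011 against WT, where the quasi-likelihood test called 14 list genes higher and 0 lower, the other settings called 5 to 15 higher, the fewest without WT replicate 1 and without WT replicate 2 (Cxcl10, Ifit1, Ifit3, Oasl1 and Usp18 in both).

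**Figure D5:**
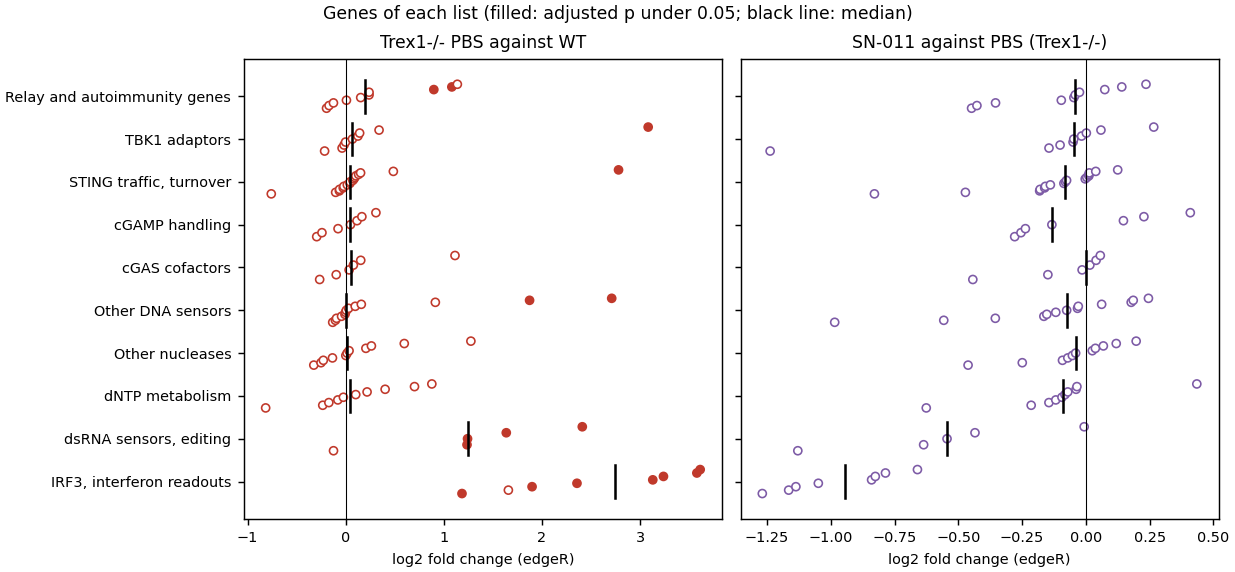
Log2 fold change (edgeR, x axis) of each tested gene of 10 lists in Trex1-/- PBS against WT (left) and SN-011 against PBS (right), with filled points for an adjusted p under 0.05 and a black line at each list's median. On the left the median is 2.74 for IRF3 and interferon readouts and 0.19 for the 10 relay and autoimmunity genes, and on the right no point is filled.

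The genes whose levels tracked the members most closely over the 9 libraries were found by Pearson's r of log2 CPM among 11588 genes with a mean of at least 5 CPM. These are descriptions over libraries that share 3 groups and their scaling. For Samhd1 it was Ddx60 (r = 0.991), which was itself called in Trex1-/- PBS against WT at 2.58 (edgeR adjusted p = 7.27e-04), and for Adar it was Zc3hav1 (r = 0.986), called at 1.25 (adjusted p = 3.66e-04). For the relay genes it was Gm11273 for Cgas (0.918), Fbxo34 for Tmem173 (0.920), Tank for Tbk1 (0.974), Rnf152 for Ikbke (0.942) and Rrnad1 for Irf3 (0.969). For RNase H2 it was Cep19 for Rnaseh2b (0.948) and Naxe for Rnaseh2c (0.974). Outside Samhd1 and Adar, none of these named closest genes was called in Trex1-/- PBS against WT, with adjusted p from 0.318 to 0.952.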

How the data were processed

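The study's authors trimmed reads with Trimmomatic, aligned them with HISAT2 (build mm10 in the submitters' processing notes) and counted uniquely mapped pairs with featureCounts. Versions, annotation and strand setting are not given in the sources used here. The deposited values are raw counts per Ensembl gene, 1 file per library, not pooled. Of 54532 identifiers, 54495 matched GENCODE vM21.

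Counts were analysed with edgeR 4.0.16 in R 4.3.3. Genes were kept by filterByExpr (minimum count 10, minimum total 15), and 9 libraries entered 1 quasi-likelihood fit with TMM scaling, a mean per group and Benjamini-Hochberg adjustment over 16646 genes. On counts simulated for Trex1-/- PBS against WT, 91.5% of 200 changed genes were recovered, and 6 other genes were called among 16385. The changes put into that simulation were all larger than any fitted for the relay and autoimmunity genes. The share recovered therefore does not cover changes of their size. Alternatives were other scalings, filters, tests (DESeq2 1.42.0, edgeR's exact test, limma-voom 3.58.1), fits, a replicate block, a Y-linked term and leaving out each library. Replicate libraries of a group differed beyond sampling noise, so no library repeats the reads of another in its group. Libraries of different groups were not compared in this way.

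The members and lists were chosen with earlier results of these data known. Named from each list were all called genes or, with none called, that of lowest p in the Trex1-/- PBS and WT comparison, and for each member the gene most alike over libraries (that of Rnaseh2a is not reported here). Adarb1, Ccl5, Ifnb1, Trim56, Insig1 and the cell type markers given with values of their own fall outside that rule and were chosen after their values were seen. The lists were TBK1 adaptors, STING traffic and turnover, cGAS cofactors, cGAMP handling, other DNA sensors, nucleases, double-stranded RNA sensing and editing, deoxynucleotide metabolism, IRF3 readouts and cell type markers.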

Additional observations from a re-analysis of the deposited data

How the results depend on the processing

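The number of members called was the same in all 19 alternative settings for Trex1-/- PBS against WT (2, Samhd1 and Adar) and for SN-011 against PBS (0), with Cgas left untested under the filter of a mean of at least 50 counts and given no adjusted p by the Wald test in SN-011 against PBS. In SN-011 against WT, where Adar alone was called, the number was 2 without a filter on low counts, with a term for Y-linked transcripts, with the DESeq2 Wald test and with edgeR's exact test, and 0 to 1 when leaving out 1 library (0 without any 1 WT replicate or PBS replicate 1, and Samhd1 in place of Adar without SN-011 replicate 1). The numbers of genes called over the whole table moved more than those of the members. For Trex1-/- PBS against WT (313) they were 707 without a filter, 198 with the Y-linked term, 726 with the Wald test, 686 with the exact test, 751 with only the 6 libraries compared and 153 to 774 leaving out 1 library (160, 162, 157 and 153 without WT replicate 1, WT replicate 2, PBS replicate 1 and PBS replicate 2, and 774 without SN-011 replicate 2). For SN-011 against PBS (0) they were 127, 183 and 127 without a filter, with the Wald test and with the exact test, and 0 to 519 leaving out 1 library, the highest without SN-011 replicate 2 (1 without PBS replicate 2 and 22 without SN-011 replicate 3). For SN-011 against WT (213) they were 607, 656, 816, 597 and 43 without a filter, with the Y-linked term, the Wald test, the exact test and only the 6 libraries, and 38 to 376 leaving out 1 library (38 and 48 without WT replicates 1 and 2, 102, 106 and 124 without PBS replicates 1, 2 and 3, and 376 without SN-011 replicate 2). The causes were not tested.

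Of 566 recomputed values, 529 kept their direction and their side of the threshold, 5 gained and 5 lost a call, and 27 changed sign, all of the last in genes that were not called. Irf3 in Trex1-/- PBS against WT was -0.0016 with DESeq2 size factors, -0.019 with upper-quartile factors and -0.0022 with the Wald test. With the Y-linked term, SN-011 against PBS was 0.15 for Tmem173, 0.021 for Tbk1, 0.051 for Ikbke, -0.045 for Rnaseh2a and 0.22 for Rnaseh2b. Leaving out 1 library, the sign turned in these. In Trex1-/- PBS against WT, Irf3 lay between -0.066 and 0.089 and Rnaseh2b between -0.25 and 0.070. In SN-011 against PBS, Tmem173 lay between -0.23 and 0.015, Tbk1 between -0.14 and 0.033, Ikbke between -0.11 and 0.029, Rnaseh2a between -0.055 and 0.22, and Rnaseh2b between -0.13 and 0.023. In SN-011 against WT, Tmem173 lay between -0.050 and 0.40, Rnaseh2a between -0.23 and 0.051, Rnaseh2b between -0.29 and 0.027, and Rnaseh2c between -0.17 and 0.082.

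The replicate numbers were not taken as pairs, since no label ties them to a shared animal or batch and the deviations of same-numbered libraries correlated at -0.294 to 0.242, beside -0.368 to 0.38 for other numbers. Between the PBS and SN-011 groups the same-numbered pairs correlated at 0.198, 0.242 and 0.098, each library best with its own number, which is a hint from the data and not part of the design. With the replicate block, 312, 0 and 231 genes were called in the 3 comparisons, and the calls of the 10 genes were the same, with Samhd1 at 0.90 and Adar at 1.07 in Trex1-/- PBS against WT. Of the other list genes, Dhx58 and Ifi204 lost their call in SN-011 against WT with the block. Of the 10 genes, Cgas had the fewest counts, at 9 to 34 a library.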
